A study of Drosophila melanogaster with 12 samples.

Results

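Brains of flies that expressed either of 2 repeat-bearing transcripts, CAG100 or CAA/G105, were set together against brains that expressed the same reporter without a repeat, CAG0. The comparison takes the mean of both repeat genotypes minus CAG0, in 1 fit with 3 genotype means, and asks which transcripts moved in the same direction and by a similar amount in both repeat genotypes. It used all 12 arrays of the series, 4 per genotype. Of 18769 probe sets that are not array controls, 8966 were tested, each with a signal of at least log2 4 on at least 4 arrays, and they stood for 6969 genes. A change was called at a limma adjusted p under 0.05, and a called change was counted as alike when both repeat genotypes moved in the same direction and the smaller change was at least 0.5 times the larger on the log2 scale. Levels are log2 signals, given per array or as a mean ± SD over 4 arrays, and signed changes are log2 differences from CAG0 ± SE of the fit.

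All flies were 3-day-old Drosophila melanogaster females raised at 25 °C under 12 h of light and 12 h of dark, and all carried elav-GAL4 and a UAS-DsRed transgene. The elav-GAL4 driver is active in neurons, while the RNA came from whole brains with their glia. DsRed carried nothing extra in CAG0, a run of 100 CAG units in CAG100 and an interrupted run of CAA and CAG units in CAA/G105, in each case behind the coding sequence, where it is not translated. Flies had 1 transgene copy in CAG0, 5 in CAG100 and 2 in CAA/G105, which the submitters set so that reporter mRNA matched. Copy number, insertion sites and any background of the lines therefore differ together with the repeat, and their parts in a difference cannot be told apart. Each sample pooled some 20 brains without eyes, lamina or outer medulla. The 4 samples of a genotype are called independent in the series text, and their number limits the precision of every value.

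Long CAG runs are known from the polyglutamine diseases, among them Huntington's disease, where the repeat is translated. The repeat RNA is itself harmful in flies and can fold into a hairpin that holds RNA-binding proteins such as muscleblind, while CAA interruptions break up the hairpin without changing the length of the run. In the series design the interrupted repeat served as a non-toxic control, and the changes that it had in common with CAG100 are described here.

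The averaged comparison called 1260 probe sets (14.1% of those tested), of which 541 were higher with a repeat (6.03%) and 719 lower (8.02%). Of these, 674 changed alike (7.52% of those tested), 271 of them higher (3.02%) and 403 lower (4.49%). The balance of directions depended on scaling: once array medians were equalised, 381 of the alike changes were higher and 313 lower. Most were small, with a median size of 0.39 on the log2 scale (1.31-fold). An averaged change of at least 1.5-fold was seen for 214 of the alike probe sets, of at least 2-fold for 101 (54 higher, 47 lower) and of at least 4-fold for 31 (13 higher, 18 lower). With 1 probe set per gene, 13.5% of genes were called and 7.4% alike, 2.97% higher and 4.43% lower. In 553 probe sets (6.17%) all 8 repeat arrays lay on the same side of all 4 CAG0 arrays, 235 of them above (2.62%) and 318 below (3.55%).

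**Figure D1:**
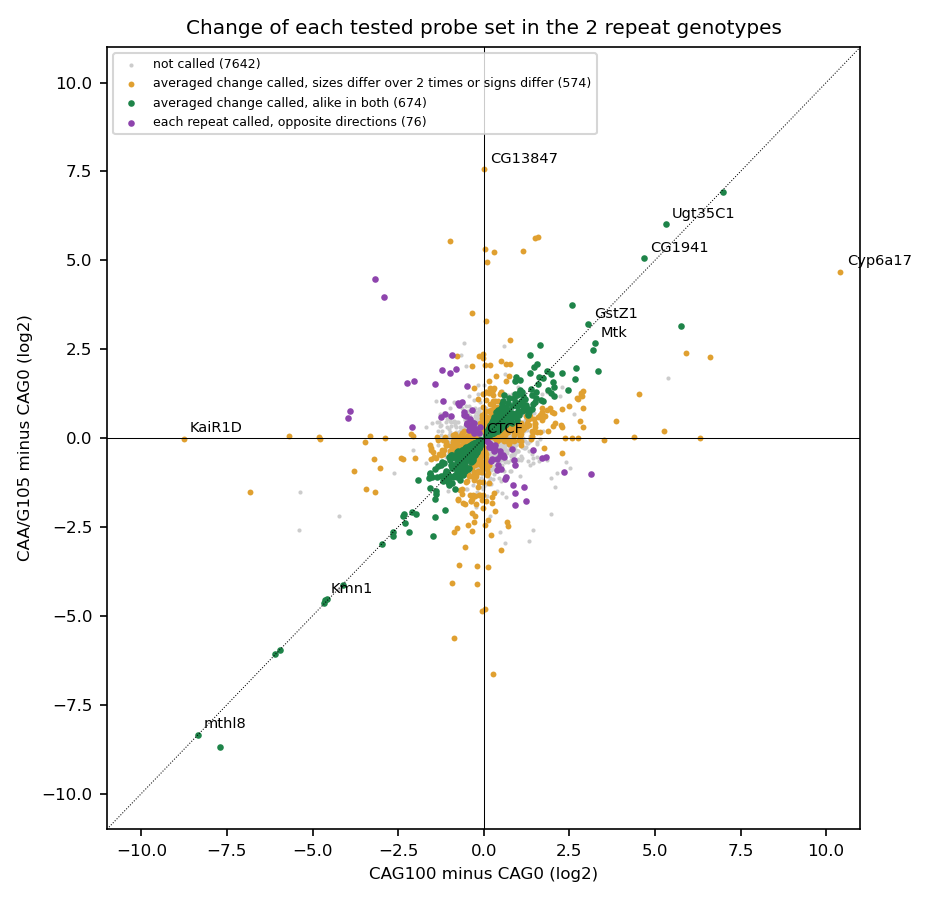
Change of each tested probe set in CAG100 (horizontal axis) and CAA/G105 (vertical axis) against CAG0, both on the log2 scale, with 1 point per probe set. The 674 alike changes (green) lie near the diagonal, with mthl8 and Kmn1 at the lower left and Ugt35C1 and CG1941 at the upper right, while 76 probe sets called in opposite directions (purple) lie in the other quadrants.

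Both changes are measured from the same 4 CAG0 arrays, so a CAG0 array that stands apart moves them together. CAG0 replicate 3 had a median signal over tested probe sets of 10.37, while the 3 remaining CAG0 arrays had 10.44 to 10.49 and the repeat arrays 10.39 to 10.45. Without CAG0 replicate 3 the comparison called 1651 probe sets, 1092 of them lower, and 705 fell alike. Without CAG0 replicate 2 it called 447 lower and 249 lower alike, and without CAG0 replicate 4 it called 826 in all, 450 lower and 258 lower alike. mthl8, Kmn1, Reepl1, CG43117, Ugt35C1, CG1941 and GstZ1 kept their call without any single array. A feature that all 4 CAG0 arrays share would also move both changes together, and leaving out single arrays does not test for it.

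In the alike group, 371 probe sets also passed the test in each repeat genotype taken singly, 277 in 1 of them and 26 in neither. Taken singly, the tests called 18.3% of probe sets for CAG100 against CAG0 and 13.2% for CAA/G105 against CAG0, and the repeats differed from each other in 20.8%. A direct test of CAG100 against CAA/G105 passed for 49 of the 674, so that these changed in the same direction but not by the same amount. That the other 625 did not pass does not show equal changes. Over all 674 alike probe sets, the 95% interval of the difference reached a median of 0.20 to either side. It lay within 0.5 times the averaged change to either side for 89 of the 674 (36 higher, 53 lower), and 40 of these changed at least 2-fold. The 89 include probe sets that passed the direct test, such as that of Ugt35C1. CAG100 had the larger change in 373 of the alike probe sets and CAA/G105 in 301.

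**Figure D2:**
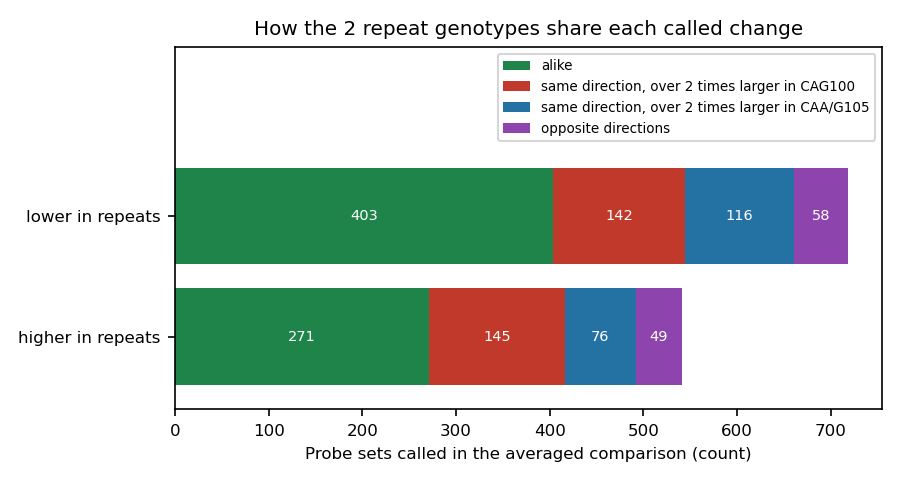
Called probe sets of the averaged comparison (horizontal axis, count), split by how both repeat genotypes shared the change. Of 719 lower probe sets 403 changed alike, and of 541 higher probe sets 271 did, with smaller shares in which CAG100 or CAA/G105 moved over 2 times further or the directions were opposite.

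The widest alike change of a named gene was the loss of signal of mthl8, which encodes a G protein-coupled receptor of the methuselah-like family. It read 10.32, 11.03, 10.25 and 10.34 on the CAG0 arrays and 2.12 to 2.15 on all 8 repeat arrays. The fall was at least 89.6-fold (adjusted p = 4.38e-13). All repeat arrays lay under log2 4, so the near-equal readings of both repeats do not show equal changes. A second mthl8 probe set fell at least 19.9-fold, from 7.54 to 8.85 per array in CAG0 to 2.21 to 2.24 with a repeat. Of 8 measured methuselah receptor genes, mthl8 was called lower and mthl13 higher, the latter by 0.35 ± 0.10 (SE) on the log2 scale with a call that was lost in 15 of 23 alternatives (adjusted p up to 0.145). These calls are 25% of the list, against 13.5% of all tested genes.

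Kinetochore genes supplied another fall that was nearly equal in both repeats. Kmn1, whose product belongs to the protein complex that joins centromeres to spindle fibres, read 11.96, 11.88, 11.96 and 11.99 in CAG0. It read 7.20, 7.23, 7.30 and 7.45 in CAG100 and 7.38, 7.22, 7.53 and 7.48 in CAA/G105, a 24.2-fold fall with a wide gap between the groups (adjusted p = 4.38e-13). Mis12, of the same complex, fell 2.71-fold, from 7.04 ± 0.37 (SD, n = 4) to 5.64 ± 0.07 in CAG100 and 5.55 ± 0.23 in CAA/G105 (limma adjusted p = 3.5e-05). Of 15 measured genes of the cell cycle and kinetochore list 3 fell, 2 of them alike, and 1 rose. The one that rose, fzy, which switches on the anaphase-promoting complex, changed by 4.40 in CAG100 and by 0.04 in CAA/G105. In all, 26.7% of the list was called, against 13.5% of all tested genes. The median change of the list was -0.07 and that of all tested genes -0.02.

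Reepl1, named for its likeness to the REEP proteins that shape the endoplasmic reticulum, is the next gene to Kmn1 on the X chromosome among tested genes. Its probe set read 6.68, 7.09, 5.91 and 7.31 in CAG0 and 2.08 to 2.11 on all repeat arrays, a fall of at least 6.71-fold (adjusted p = 1e-08). CG11699, on the other side of Kmn1, also fell alike, by 0.86 ± 0.07 (SE) on the log2 scale (adjusted p = 5.1e-06). CG11699 lies outside the naming rule and was chosen after its value was seen.

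A probe set of CanA-14F, a catalytic subunit of the calcium-dependent phosphatase calcineurin, read 8.22, 7.83, 8.0 and 8.12 in CAG0 and 3.81 to 4.02 with a repeat, a 17.4-fold fall to about the log2 4 floor, so that the fold may be larger (adjusted p = 1.33e-11). A brighter CanA-14F probe set, at 11.93 ± 0.22 in CAG0, 11.97 ± 0.21 in CAG100 and 12.25 ± 0.17 in CAA/G105, was not called (adjusted p = 0.34), so the result holds for what the first probe set detects and not for the gene. Gyc89Da, a subunit of the atypical guanylyl cyclases that sense oxygen, read 6.78 to 7.72 in CAG0, 4.92 to 5.04 in CAG100 and 4.67 to 5.0 in CAA/G105, a 5.10-fold fall (adjusted p = 2.94e-07). Pld3, of the phospholipase D family, read 11.91 to 12.33 in CAG0, 9.92 to 10.21 in CAG100 and 9.94 to 10.19 in CAA/G105. It fell 4.28-fold, from a high level, with a difference between the repeats of -0.01 (95% interval -0.23 to 0.20).

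**Figure D3:**
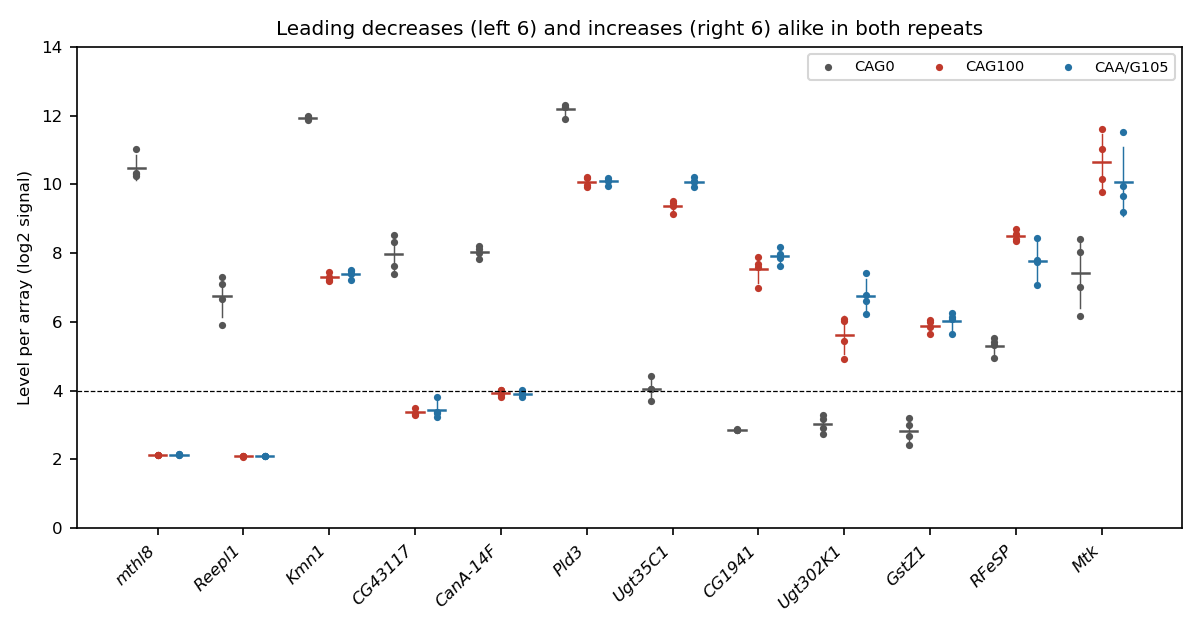
Log2 signal on each array (vertical axis) for 6 leading decreases and 6 leading increases that were alike in both repeats, with points for arrays, lines for group means ± SD and a dashed line at log2 4. Both groups with a repeat lie on the same side of CAG0 and apart from it for each gene, with the widest spread within a group in Mtk. In Ugt35C1 and Ugt302K1 the CAA/G105 arrays also lie above all CAG100 arrays.

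Calcium release channels of the endoplasmic reticulum fell slightly. RyR, the ryanodine receptor, fell 1.42-fold (-0.50 ± 0.10, adjusted p = 0.00375), and Itpr, the inositol trisphosphate receptor, fell 1.34-fold (-0.42 ± 0.11, adjusted p = 0.0215). The Itpr call was lost without CAG0 replicate 1 or 2 (adjusted p up to 0.0756). On the calcineurin, NFAT and calcium list 3 of 9 measured genes were called, all lower and 2 alike, where 7.78% of all tested genes were called lower. NFAT, a transcription factor gene on this list, fell by 3.79 in CAG100 and by 0.93 in CAA/G105, so it was called but not alike.

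Other genes went from a measured level to under log2 4, or the reverse, in both repeats. All 4 CAG0 arrays reached log2 4 and all 8 repeat arrays stayed under it for 14 probe sets, 13 of them alike, and the converse held for 7, of which 6 were alike. CG43117 read 7.39 to 8.53 in CAG0, 3.31 to 3.5 in CAG100 and 3.23 to 3.82 in CAA/G105 (at least 15.6-fold lower, adjusted p = 1.06e-08). Amnionless, a subunit of an endocytic receptor, fell at least 2.86-fold and Uros1, an enzyme of haem synthesis, at least 2.30-fold. In the other direction CG1941 read 2.85 to 2.88 in CAG0, 6.98 to 7.90 in CAG100 and 7.62 to 8.18 in CAA/G105, and so rose at least 13.2-fold (adjusted p = 5.02e-10). The array names no single gene for 20 of the 101 alike probe sets with a change of at least 2-fold. Among these 20 were falls of at least 221-fold and 15.4-fold and a rise of at least 38.9-fold.

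Further down the order, 9 more genes of the naming rule changed alike. CG6985 (-2.06 ± 0.27), the tetraspanin gene Tsp74F (-1.82 ± 0.28) and l(1)G0196 (-1.48 ± 0.19) fell. Of 5 tested l(1)G0196 probe sets, 2 fell alike and 3 were not called. e(y)2b, a relative of a subunit of transcription and mRNA export complexes, rose 3.66-fold with nearly equal changes of 1.85 in CAG100 and 1.89 in CAA/G105. Arpc1, of the actin-nucleating Arp2/3 complex, rose by 1.84 ± 0.20, further in CAA/G105 (2.32) than in CAG100 (1.36). CG2065 (1.82 ± 0.33), CG31326 (1.74 ± 0.32), CG5381 (1.7 ± 0.22) and the ribosomal RNA pseudogene 18SrRNA-Psi:CR41602 (1.61 ± 0.21) rose as well. The pseudogene lay under log2 4 on all CAG0 arrays, so that its rise is given as at least 1.58-fold.

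Detoxification enzymes were among the largest increases. UDP-glycosyltransferases, which attach sugars to lipophilic compounds and so make them easier to excrete, had 5 of 12 measured genes called, all higher, where 5.74% of all tested genes were called higher. The median change of the list was 0.42, with 11 of 12 genes above 0. Ugt35C1 read 4.44, 4.04, 4.05 and 3.71 in CAG0. It read 9.13, 9.37, 9.52 and 9.45 in CAG100 and 9.93, 10.08, 10.09 and 10.23 in CAA/G105. The rise was 50.8-fold from a CAG0 level at about the log2 4 floor, so that the fold may be larger (adjusted p = 1e-11), and the change was larger in CAA/G105 than in CAG100 by 0.72 (95% interval 0.41 to 1.03, adjusted p = 0.00382).

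Ugt302K1, the tested gene next to Ugt35C1 on chromosome arm 3R, read 2.74 to 3.29 in CAG0, 4.91 to 6.09 in CAG100 and 6.24 to 7.42 in CAA/G105. It rose at least 4.58-fold, again further in CAA/G105, by 1.15 (adjusted p = 0.0136). Of the other called members, Ugt317A1, Ugt37D1 and Ugt36D1 had a change over 2 times larger in 1 repeat than in the other, and the Ugt37D1 call was lost in 14 of 23 alternatives. With both repeats taken as 1 group in a 2-group fit, so that their difference counts as error, only 2 members of the list passed.

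Glutathione S-transferases, which couple glutathione to reactive compounds, had 5 of 23 genes called higher and 2 lower, 3 and 2 of them alike, with a median change of 0.04, where 5.74% of all tested genes were called higher and 7.78% lower. GstZ1, of the zeta class that acts in tyrosine breakdown, read 3.00, 3.21, 2.42 and 2.70 in CAG0 and 5.64 to 6.25 on the repeat arrays, a rise of at least 3.89-fold (adjusted p = 4.91e-08). GstE2 rose 1.47-fold, from 13.17 ± 0.08 to 13.79 ± 0.08 in CAG100 and 13.67 ± 0.08 in CAA/G105. GstE1 rose too, by 0.32 ± 0.07, and GstE7 (0.83 in CAG100 and 0.40 in CAA/G105) not alike, while GstO1 fell by 0.53 ± 0.13 and GstD11 by 0.46 ± 0.13. The calls of GstE7 and GstD11 were lost in 12 and 10 of 23 alternatives.

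Cytochrome P450 genes, whose products oxidise hormones and foreign compounds, changed in both directions and mostly not alike. Of 44 measured members 8 were called higher and 7 lower, of which 4 and 1 were alike, against 5.74% and 7.78% of all tested genes. In the 2-group fit 4 were higher and 1 lower. The median change was -0.01 (0.02 once array medians were equalised). Cyp9b1 read 4.53 to 6.39 in CAG0, 7.55 to 7.90 in CAG100 and 6.95 to 7.62 in CAA/G105, a 4.16-fold rise (adjusted p = 0.000284). Cyp28d2 rose 3.08-fold and Cyp49a1 rose by 1.2 ± 0.14. The change of Cyp28d2 was larger in CAG100 than in CAA/G105 by 0.70 (95% interval 0.45 to 0.96). The averages of other P450 genes joined unlike changes: Cyp6a9 changed by -4.82 in CAG100 and 0.03 in CAA/G105, and Cyp6a20 by -3.44 and -1.42. Cyp6a17 changed by 10.42 in CAG100 and 4.68 in CAA/G105, from CAG0 arrays at 2.07 to 2.10, under log2 4. Its CAA/G105 arrays read 9.61, 6.32, 2.09 and 9.02, so that 1 of them stayed at the CAG0 level.

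**Figure D4:**
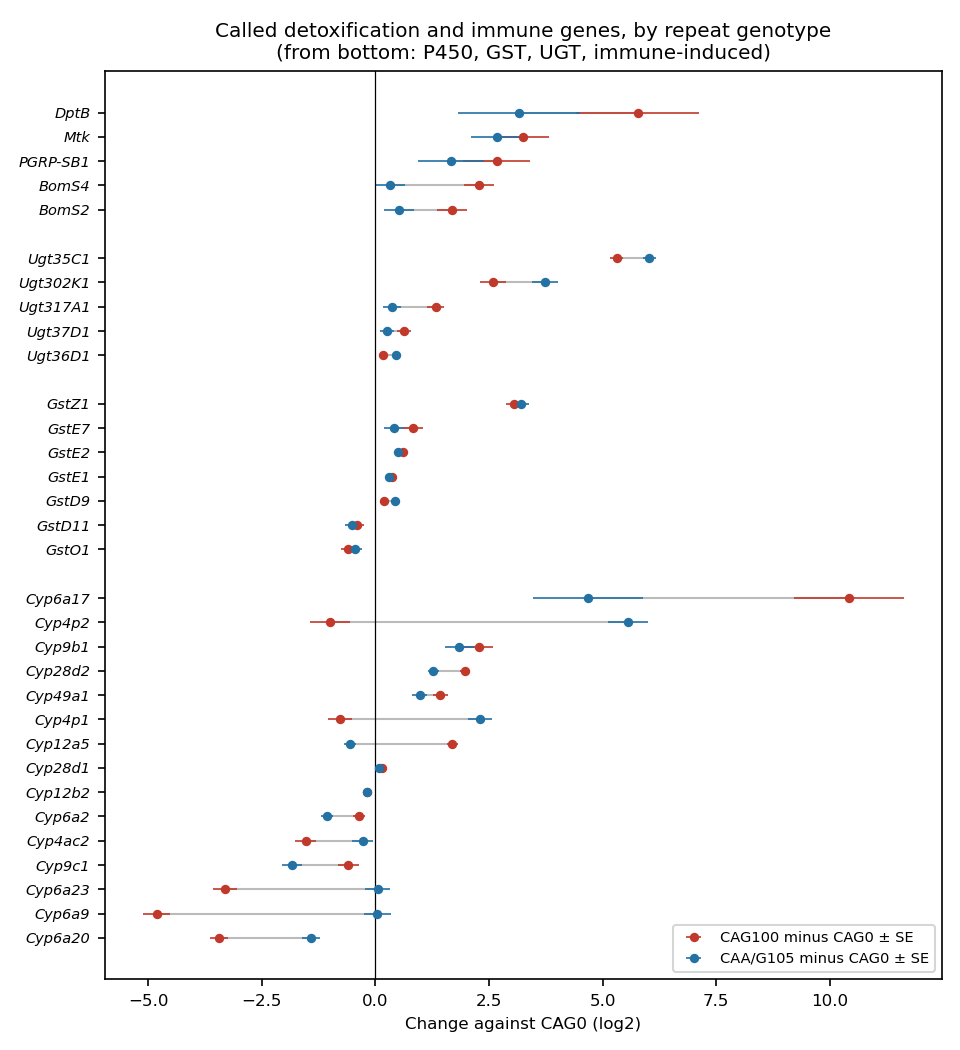
Change against CAG0 on the log2 scale (horizontal axis, ± SE) in CAG100 (red) and CAA/G105 (blue) for called genes of the P450, GST, UGT and immune-induced lists. The pair of points lies close together for GstZ1, Mtk and Cyp9b1 and far apart for Cyp6a17, Cyp4p2 and Cyp6a9.

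Several immune-induced genes rose, with a wide spread between arrays. Of 14 measured antimicrobial and immune-induced genes 5 were called, all higher and 3 alike, where 5.74% of all tested genes were called higher. The median averaged change was 0.90, and all 14 averaged changes were above 0. Taken singly, the median change of the list was 1.23 in CAG100 and 0.42 in CAA/G105. Mtk, which encodes the antifungal peptide metchnikowin, read 6.17, 8.05, 8.40 and 7.03 in CAG0. It read 9.79, 11.04, 11.60 and 10.16 in CAG100 and 9.21, 9.96, 11.51 and 9.66 in CAA/G105. The groups did not overlap, and the rise was 7.76-fold (adjusted p = 0.00183).

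DptB, for the antibacterial peptide diptericin B, reached 5.47 to 11.22 in CAG100 and 3.18 to 9.87 in CAA/G105 against 2.29 to 4.54 in CAG0, so its groups overlapped (adjusted p = 0.0239). PGRP-SB1, a secreted recognition protein for bacterial cell walls, rose 4.48-fold on average (adjusted p = 0.0398), also with overlap between the groups. DptB lost its call in 6 of 22 alternatives and PGRP-SB1 in 13 of 23 (adjusted p up to 0.0736 and 0.142). When the 3 arrays lacking Akh signal were left out, 3 of the 14 genes were called, and in the 2-group fit 1 was.

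The same direction was seen for SPE, the protease that activates the Toll ligand, which rose 3.73-fold (4.86 to 5.37 in CAG0, 6.67 to 8.96 in CAG100, 4.78 to 7.46 in CAA/G105, adjusted p = 0.0203). Of 19 measured Toll and IMD signalling genes 2 were called higher, SPE and the IMD transcription factor gene Rel, and 1 lower. The lower one was dl, a Toll transcription factor gene, which fell 1.49-fold (-0.57 ± 0.08, adjusted p = 0.000582). In all, 15.8% of the list was called, against 13.5% of all tested genes. The SPE call was lost without CAG0 replicate 2 or 4 (adjusted p up to 0.0668 over all alternatives) and the Rel call in 11 of 23 alternatives, and neither passed in the 2-group fit. Immune peptides are made largely by fat body and haemocytes, so markers of both were examined. The mean level of 10 measured fat body genes was 11.16 to 11.95 per array in CAG0, 11.17 to 11.52 in CAG100 and 11.06 to 11.29 in CAA/G105, with Fbp1 and Fbp2 under log2 4 on every array. Lsp2, a larval serum protein of the fat body, was the 1 called fat body gene: it read 9.92, 6.16, 6.76 and 5.89 in CAG0, 3.46 to 5.30 in CAG100 and 4.63 to 5.82 in CAA/G105. Its fall (adjusted p = 0.0389) was lost in 14 of 22 alternatives, among them those without CAG0 replicate 1 or 3. For 18 measured haemocyte genes the mean level was 10.20 to 10.85 in CAG0, 10.22 to 10.69 in CAG100 and 9.54 to 10.30 in CAA/G105, and LanB1 (-0.52 and -1.24) and SPARC (0.02 and -0.40) were called lower, the SPARC call being lost in 15 of 23 alternatives. The part of adhering tissue in the immune result was not tested, and in whole brains fewer cells of a type and less RNA per cell cannot be told apart.

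Genes for mitochondrial proteins moved one by one. RFeSP, the Rieske iron-sulphur protein of complex III, read 4.96 to 5.52 in CAG0, 8.35 to 8.70 in CAG100 and 7.07 to 8.45 in CAA/G105 on 1 probe set, a 7.13-fold rise (adjusted p = 1.07e-06). A brighter RFeSP probe set read 12.38 ± 0.12, 12.48 ± 0.05 and 12.32 ± 0.11 and was not called (adjusted p = 0.861). The mitochondrial ribosomal protein genes mRpS24 and mRpL54 moved in opposite directions. mRpS24 fell 1.81-fold and differed between the repeats by -0.01 (95% interval -0.19 to 0.17). mRpL54 rose 1.71-fold, from 10.04 to 10.64 in CAG0 to 10.95 to 11.02 in CAG100 and 11.13 to 11.43 in CAA/G105. On that list 3 of 69 measured genes rose and 2 fell, and of 59 oxidative phosphorylation genes 4 rose and 3 fell. In all, 7.25% and 11.9% of these lists were called, against 13.5% of all tested genes. SdhD, of complex II, rose alike (0.27 ± 0.03), while the complex III subunit genes UQCR-11 (0.23 and -1.82) and UQCR-11L (0.18 and 1.40, CAG100 first) were called mostly on CAA/G105. Once array medians were equalised, 7 mitochondrial ribosomal protein genes were higher, and 8 oxidative phosphorylation genes were higher and 2 lower.

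Some cytosolic ribosomal protein genes rose slightly: 5 of 28 were called, all higher and 4 alike, 27 of 28 changes were above 0, and the median was 0.05. The calls are 17.9% of the list, where 5.74% of all tested genes were called higher. The call count was 3 with quantile normalization and 7 once array medians were equalised. RpL17 rose by 0.15 ± 0.03 and RpL36A by 0.09 ± 0.02. RpL27 moved most, from 13.67 ± 0.04 (SD, n = 4) in CAG0 to 14.16 ± 0.06 in CAG100 and 14.06 ± 0.05 in CAA/G105 (1.36-fold, adjusted p = 7.28e-07). MtnA, a metal-binding metallothionein, rose 1.19-fold with little spread, from 14.49 to 14.51 per array in CAG0 to 14.67 to 14.81 with a repeat (adjusted p = 1.82e-06).

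Transmitter receptors had 8 of 36 measured genes lower, 4 of them alike, and 1 higher, against 7.78% lower and 5.74% higher over all tested genes, with a median change of -0.11 and 31 of 36 changes below 0. Grik, a kainate-type glutamate receptor subunit, fell 2.01-fold alike (6.14 to 6.61 in CAG0, 5.10 to 5.62 in CAG100, 5.07 to 5.87 in CAA/G105, adjusted p = 0.000691). The other alike members were nAChRalpha7 (-0.29 ± 0.07), the serotonin receptor gene 5-HT2A (-0.28 ± 0.08) and GABA-B-R3 (-0.22 ± 0.05), each named because few were alike. The 5-HT2A call was lost in 14 of 23 alternatives, 10 of them with a single array left out (adjusted p up to 0.149), and the nAChRalpha7 call without CAG0 replicate 1 or 2 (adjusted p up to 0.0533). Octbeta2R, an octopamine receptor gene, was the one called higher, with changes of -0.02 in CAG100 and 1.24 in CAA/G105. KaiR1D, another kainate-type subunit, was called on its average but changed by -8.76 in CAG100 and -0.02 in CAA/G105. Its CAG100 arrays read 3.28 to 3.33, under log2 4, so that the size of that fall is not exact. In the 2-group fit 4 members of the list were lower. Once array medians were equalised, 7 were lower and the list median was -0.08.

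Neuropeptide genes had 8 of 30 measured members lower, 3 of them alike, and 1 higher, beside the same all-gene shares. The largest averages, of the eclosion hormone gene Eh (-2.14 ± 0.34) and CCHa1 (-1.03 ± 0.15), came mostly from CAA/G105, where they were -4.10 and -1.7. The leucokinin gene Lk (-0.76 ± 0.13) had a change of -0.16 in CAG100 and -1.36 in CAA/G105. In the 2-group fit 2 members were lower. The alike members changed little: Mip (-0.25 ± 0.05), Nplp1 (-0.21 ± 0.04) and spab (-0.12 ± 0.03) fell, and Pdf, the peptide of clock neurons, rose by 0.31 ± 0.07, with the spab call lost in 11 of 23 alternatives. Pdf rose by 0.41 in CAG100 and by 0.21 in CAA/G105, which singly did not pass limma's test (adjusted p = 0.131), and its groups overlapped. Among 25 ion channel genes 2 were higher and 2 lower, 16% of the list against 13.5% of all tested genes. Of these, ppk8, a sodium channel of the pickpocket family, fell 1.99-fold (adjusted p = 0.00135). The potassium channel gene Irk2 (0.26 ± 0.03) and the TRP channel gene pyx (0.30 ± 0.08) rose. Transmitter synthesis and transport genes had 2 of 19 lower and none alike, the dopamine transporter gene DAT (-0.53 and -0.06) and prt (-0.07 and -0.36). Of 18 synaptic vesicle and active zone genes Csp fell, by 0.12 ± 0.03. The dpr, DIP, beat and side cell-surface genes had 5 of 46 lower, 4 of them alike with DIP-zeta (-0.32 ± 0.08) and beat-IIb (-0.29 ± 0.07) ahead, and side-VII higher (0.30 ± 0.08). Of these synthesis, synaptic and cell-surface genes 10.5%, 5.56% and 13% were called, against 13.5% of all tested genes. Once array medians were equalised, and likewise in the 2-group fit, 2 of the 46 were lower, and the DIP-zeta and Csp calls were lost with equalised medians, the latter also without CAG0 replicate 3. The calls of prt, side-VII and pyx were lost in 18, 14 and 10 of 23 alternatives. The mean levels of neuron markers (13.02 to 13.25 as a mean of 5 genes on every array) and glia markers (12.55 to 12.63 over 14 genes) lay within narrow ranges. Single glial genes did change, in both directions, which the list mean does not show. Of the 14, 3 were called higher and 2 lower, 35.7% against 13.5% of all tested genes. In the 2-group fit 0 were higher and 1 lower. Among the glial genes moody (0.23 ± 0.07), drpr (-0.20 ± 0.03) and Mdr65 (0.18 ± 0.05) had the largest called changes, of which moody and Mdr65 lost their calls in 14 and 16 of 23 alternatives.

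RNA-handling genes were examined because of the repeat RNA. Of 31 splicing and RNA-binding genes 2 fell alike, Hrb27C (-0.19 ± 0.05) and B52 (-0.16 ± 0.04), and the list had 5 genes at an unadjusted p under 0.05. Both calls were lost once array medians were equalised, and over the alternatives the adjusted p reached 0.0915 for B52 and 0.114 for Hrb27C. Of 13 small RNA genes Dcr-2, the enzyme that makes siRNAs, fell alike (-0.34 ± 0.09, adjusted p = 0.025), and Hen1 rose further in CAA/G105 (1.75) than in CAG100 (0.75). In all, 6.45% of the splicing list and 15.4% of the small RNA list were called, against 13.5% of all tested genes. Muscleblind is covered by 6 tested mbl probe sets. One rose 2.22-fold, from 7.84 to 8.68 in CAG0 to 9.24 to 9.51 in CAG100 and 9.15 to 9.56 in CAA/G105 (adjusted p = 0.000107), and the other 5 were not called, with changes of -0.19 to -0.06. The mbl probe sets were chosen after their values were seen.

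Heat shock proteins and chaperones had 1 of 15 called (6.67%, against 13.5% of all tested genes), Hsp27, which was lower on average but changed by -1.23 in CAG100 and -0.33 in CAA/G105. In limma's averaged test none of 10 unfolded protein response genes, 20 cell death and JNK genes, 11 circadian clock genes or 19 ecdysone and juvenile hormone genes was called, with 1, 2, 2 and 0 at an unadjusted p under 0.05. Quantile normalization called 1 clock gene, and array weights called 1 cell death and JNK gene. Of 18 autophagy genes 22.2% were called: 3 were lower, Atg6 (-0.32 ± 0.06) and Atg1 (-0.17 ± 0.05) alike and Atg4a (-0.43 and -0.18) not, and Atg18b was higher with changes of 0.06 and 1.29. The Atg1 call was lost in 18 of 23 alternatives, equalised medians among them, while Atg6 kept its call in each. Proteasome genes had 2 of 27 called, Prosbeta4 higher (0.39 ± 0.05) and Rpt5 lower (-0.23 ± 0.07, lost in 14 of 23 alternatives), both alike. Of 17 oxidative stress and metal genes MtnA and the peroxiredoxin gene Prx6c were higher, and Prx6c changed by 1.57 in CAG100 and 5.66 in CAA/G105. Once array medians were equalised, 5 of the 17 were higher. Of 40 translation factor genes 4 were higher and 1 lower, with eIF3i (0.27 ± 0.04) alike, eIF3j (-0.06 and -0.26) not, and eIF4E5 changing by 2.28 in CAG100 and -0.43 in CAA/G105. All CAG0 arrays of eIF4E5 lay under log2 4 (3.05 at most), so that neither of its sizes is exact. With equalised medians 6 of the 40 were higher, and in the 2-group fit 1 was. Among 8 activity-regulated genes Arc1 (0.28 ± 0.06) and Irbp18 (0.21 ± 0.06) rose alike, which is 25.0% of that list.

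**Figure D5:**
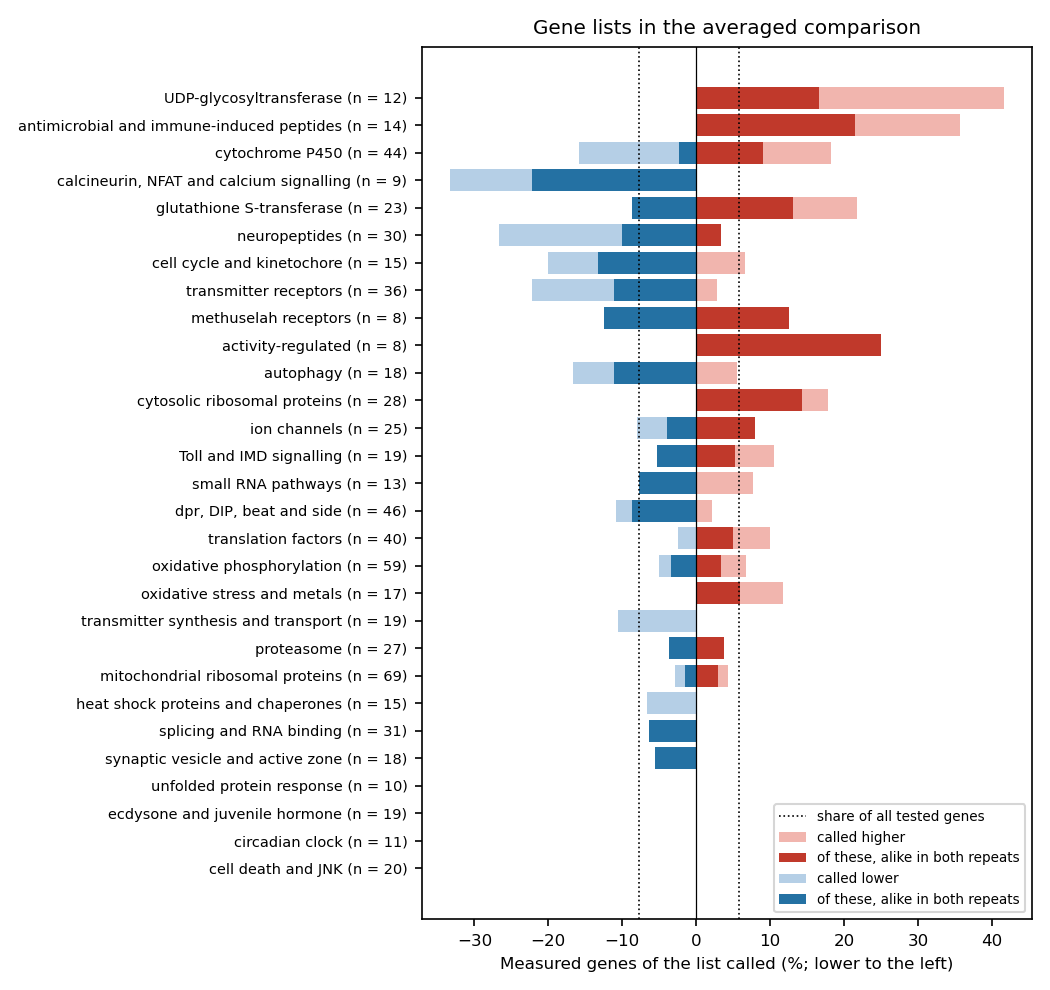
Percentage of the measured genes of each list with at least 8 measured genes that were called higher (right, red) or lower (left, blue) in the averaged comparison, with the alike share in darker colour and dotted lines at the shares of all tested genes, 5.74% higher and 7.78% lower. UDP-glycosyltransferases and immune-induced genes reach furthest to the right, and the calcium, neuropeptide and transmitter receptor lists furthest to the left.

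Among alike changes of at least 2-fold in named genes, the ratio of both changes was nearest to 1 in mthl8, Reepl1, CG7544, CR14798, CanA-14F and Pld3. In mthl8, Reepl1 and CanA-14F the repeat arrays lay under or at about log2 4, so that the ratio is set by the floor. CR14798, a non-coding transcript, read 7.96, 8.05, 8.08 and 8.02 in CAG0, 9.42, 9.30, 9.50 and 9.36 in CAG100, and 9.47, 9.25, 9.45 and 9.43 in CAA/G105 (2.58-fold higher, adjusted p = 1.89e-08). CG7544 fell 2.29-fold and differed by 0.00 between the repeats (95% interval -0.34 to 0.33). Just inside the size limit lay CG12112, with changes of -1.14 and -2.02, CG8132 (0.92 and 1.59) and Ctr9 (-1.34 and -0.78). Just outside lay CG34054 (1.71 and 0.84), Lgr3 (-3.17 and -1.53) and CG13482 (-0.68 and -1.46), in each case CAG100 first.

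Genes with several probe sets showed how far a result was shared within a gene. Of 492 genes with over 1 tested probe set, 78 had an alike change in the probe set with the smallest p, and their 124 other probe sets had the same sign in 86 cases, a call in the same direction in 26 and a call in the opposite direction in 7. Both probe sets of Idgf3, a chitinase-like growth factor, rose alike, by 1.09 ± 0.06 and 0.51 ± 0.04. All 3 of Ptp4E, a receptor tyrosine phosphatase, and 3 of 5 of inaE, a diacylglycerol lipase, fell alike, by 0.20 to 0.59 and 0.44 to 0.78 on the log2 scale. In scrib, a gene of cell polarity, 2 of 5 probe sets rose alike and 1 fell alike, the last by 0.37 ± 0.07. The insulator gene mod(mdg4), whose many transcripts are joined from separate precursors, had 16 of 22 probe sets called, 12 lower and 4 higher, and 5 fell alike, by 0.30 to 0.41. Idgf3, Ptp4E and inaE were chosen after their values were seen.

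Along the chromosomes, 6.78% of tested genes on X were alike, 7.95% on 2L, 7.26% on 2R, 6.68% on 3L, 7.79% on 3R and 13.6% on 4, where there were 59 genes and 8 alike ones. Of the alike genes, 101 had an alike gene as the next or previous tested gene. In 56 such pairs the change went the same way in 33 and opposite ways in 23. The next tested gene was alike for 10.9% of alike genes, and 7.38% of all tested genes on the arms were alike. Beside Kmn1 with Reepl1 and Ugt35C1 with Ugt302K1, a run of 5 neighbours on 3R held RpL27 at its end. Fold sizes were larger at low signal: 42 of the alike probe sets with at least 2-fold change had a mean level under log2 6 and 3 at log2 12 or above, while the alike share of tested probe sets was 8.88% and 6.96% in those bins.

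Changes that both repeats showed in opposite directions cancel in the average. Each repeat passed its own test with opposite signs for 76 probe sets (0.848%), against 434 (4.84%) that passed in the same direction, with the shared CAG0 arrays bearing on both counts. CTCF, an insulator protein gene, read 2.38 to 2.44 in CAG100 and 9.76 to 10.26 in CAA/G105, with 7.79, 6.76, 4.89 and 2.87 in CAG0. Nlg4, a neuroligin, an adhesion protein of synapses, read 5.23 to 5.56 in CAG100, 9.13 to 9.40 in CAA/G105 and 7.51 to 7.92 in CAG0. CG6040 was lower in CAG100 and higher in CAA/G105 as well, and CG11626 and CG30099 went the other way.

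As checks on the material, elav was 13.77 ± 0.08 in CAG0, 13.69 ± 0.03 in CAG100 and 13.73 ± 0.05 in CAA/G105 (adjusted p = 0.26), and no probe set was named for w. Arrays of the same genotype correlated at r = 0.981 to 0.995 across tested probe sets and CAG0 arrays with repeat arrays at 0.969 to 0.980. CAG100 arrays correlated with CAA/G105 arrays at 0.966 to 0.976, so by this measure the repeat genotypes were no more like each other than like CAG0. Akh, from a gland attached to the brain, lay under log2 4 on CAG100 replicates 1 and 3 and CAA/G105 replicate 3, and its average was not called (adjusted p = 0.276). Without these 3 arrays 490 probe sets were alike, 264 of them lower. The mean of 14 muscle genes ranged from 6.53 to 10.01 over all arrays and that of 11 photoreceptor genes from 8.98 to 10.44. Of the genes of gut, male, olfactory and cuticle tissue, 33 of 34, 25 of 27, 192 of 215 and 87 of 93 lay under log2 4 on every array. Called genes of these marker lists were fln (-0.02 and -1.96) for muscle, rdgA (-0.23 and -0.16) for photoreceptors, Mal-A5 (-0.05 and -0.23) for gut, msl-2 (0.29 and 0.18) and Acp95EF (0.28 and 0.15) for male tissue, Or63a (-3.21 and -0.59) for olfactory organs and TwdlE (-1.06 and -0.96) for cuticle, CAG100 first. The calls of rdgA and Mal-A5 were lost in 15 and 19 of 23 alternatives. Their part in the results was not tested.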

How the data were processed

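RNA of 12 brain samples, amplified with the Ovation Pico WTA system and labelled with the Encore Biotin Module per the labels' protocols, was measured on Affymetrix arrays. The authors' deposited table holds log2 signals, for which the submitters' processing notes name GCRMA and Partek, without versions. From these log2 values limma 3.58.1 (R 4.3.3, trended variance) estimated 3 genotype means, and p-values were adjusted by Benjamini-Hochberg over the 8966 tested probe sets. SE is the standard error of the fit, SD is over 4 arrays, and precision is limited by having 4 arrays per genotype. Fold changes against a genotype under log2 4 on all its arrays are given as at least the fold against log2 4.

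Genes were named from the platform annotation, with symbols updated and gene order taken from RefSeq's table for Release 6 plus ISO1 MT: 13647 probe sets name 1 gene, 402 several and 4720 none, and 13544 matched that table. In gene lists a gene is its probe set with the highest mean. Text genes are the 15 largest alike increases and decreases without overlap, up to 3 called genes per list, the 5 strongest opposite changes, elav, w and Akh, the gene with the most alike probe sets, and the 6 most equal changes. Others were chosen after their values were seen. Members and lists were chosen with earlier results of these data known.

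Same-numbered arrays of different genotypes had deviations correlated at r = -0.26 to 0.39 over 12 pairs, 3 of them over 0.1, so the numbers were not taken to pair samples. Alternatives covered the filter on low values, scaling, variance model, array weights, replicate block, thresholds, the definition of alike, and each array left out. The fit was tested on simulated data.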

Additional observations from a re-analysis of the deposited data

Results flagged for a closer look

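In 32 of 480 genotype groups examined, 1 array lay far from the other 3 by Dixon's test, a rule that flags about 1 group in 20 by chance. The widest gap on the log2 scale was that of Akh on CAA/G105 replicate 3, at 2.06 with the next array at 11.32. Other large gaps were Prx6c on CAG0 replicate 1 (4.71, high) and CAA/G105 replicate 2 (5.82, low), Cyp4p2 on CAG0 replicate 1 (5.56, high) and Lsp2 on CAG100 replicate 2 (3.46, low).

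High CAG0 arrays were seen for mthl8 (11.03), scrib (3.26) and eIF4E5 (3.05) on replicate 2, CG1941 (2.88) and Csp (13.88) on replicate 3, and Ugt317A1 (8.11) and drpr (13.28) on replicate 1. Low CAG0 arrays were seen for inaE (12.29) and another scrib probe set (11.71) on replicate 3, and for a further scrib probe set (4.74) and eIF3i (12.67) on replicate 1. In CAG100 the array apart was high for 5-HT2A (9.80), rdgA (12.34) and l(1)G0196 (10.92), and low for CG12112 (5.71), Prosbeta4 (11.78), Atg6 (10.86), KaiR1D (3.28), Octbeta2R (6.24) and beat-IIb (10.03). In CAA/G105 it was high for mRpL54 (11.43) and low for Reepl1 (2.09), Uros1 (2.85), DAT (10.96), Mis12 (5.22), RyR (10.86) and LanB1 (7.05).

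For 51 named probe sets the change differed between the repeats in limma's direct test after adjustment. Some of these differences rest on readings under log2 4, as for KaiR1D in CAG100 and for Cyp6a17 and eIF4E5 in CAG0. The difference, CAG100 minus CAA/G105 on the log2 scale, exceeded 2 for KaiR1D (-8.75), CTCF (-7.64), Cyp4p2 (-6.55), Cyp6a17 (5.74), Cyp6a9 (-4.85), fzy (4.36), Prx6c (-4.08), Eh (3.91), Nlg4 (-3.80), CG11626 (3.01), CG6040 (-2.95), NFAT (-2.86), eIF4E5 (2.71), Or63a (-2.61), CG30099 (2.54), UQCR-11 (2.05) and Cyp6a20 (-2.02), in either direction.

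It lay between 0.5 and 2 in size for fln (1.94), Lgr3 (-1.64), CCHa1 (1.35), Octbeta2R (-1.27), Atg18b (-1.22), UQCR-11L (-1.22), Lk (1.2), Ugt302K1 (-1.15), Hen1 (-1.0), Ugt317A1 (0.97), Arpc1 (-0.96), Hsp27 (-0.89), CG12112 (0.88), CG13482 (0.77), RFeSP (0.74), LanB1 (0.72), Ugt35C1 (-0.72), Cyp28d2 (0.70), CG8132 (-0.68) and Ctr9 (-0.56). Smaller differences were those of DAT (-0.47), SPARC (0.42), side-VII (0.36), dl (-0.34), Idgf3 (0.32 and 0.19), Ugt36D1 (-0.30), prt (0.29), mod(mdg4) (-0.27), Atg4a (-0.25), eIF3j (0.19), Mal-A5 (0.18), eIF3i (0.15) and RpL36A (0.065). Ugt35C1, Ugt302K1, RFeSP, Arpc1, Cyp28d2, CG12112, CG8132, Ctr9, dl, Idgf3, eIF3i and the mod(mdg4) probe set were alike by the size limit and still differed between the repeats.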

How the results depend on the processing

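Counts were most sensitive to the CAG0 arrays and to how strictly a change was defined. With 1 array left out, calls of the averaged comparison ranged from 826 to 1651, higher calls from 376 to 559 and lower calls from 447 to 1092. Alike calls ranged from 452 to 999 (194 to 294 higher, 249 to 705 lower) and those of at least 2-fold from 92 to 114. Non-overlap counts ranged from 586 to 1135 (243 to 320 higher, 328 to 815 lower), opposite calls from 51 to 92, and calls in the same direction in both repeats from 319 to 664. Fewer arrays can only keep or raise a non-overlap count (553 on all arrays), so its range does not measure stability. Calls ranged from 1119 to 1949 for CAG100 against CAG0, 874 to 1529 for CAA/G105 against CAG0 and 1353 to 2156 between the repeats. The highest values were without CAG0 replicate 3, except for opposite calls and the comparison of the repeats (without CAG100 replicate 1). The lowest were without CAG0 replicate 2 or 4, except for non-overlap counts (without CAG100 replicate 2 or 4) and the comparisons with CAG100 (without CAG100 replicate 2).

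A threshold of 0.01 left 646 averaged calls (299 higher, 347 lower), 350 alike (151 higher, 199 lower), 31 opposite, 223 in both repeats, and 797, 642 and 979 in the single comparisons (CAG100, CAA/G105, and CAG100 against CAA/G105). The 2-group fit, in which the difference between the repeats counts as error, called 557 (238 higher, 319 lower), and a minimum fold of 1.2 called 311 (149 higher, 162 lower). Array weights gave 1164 lower calls, 656 alike lower and 674 in both repeats. Alike counts were 371 (152 higher, 219 lower) when each repeat had to pass its own test, and 89 (36 higher, 53 lower, 40 of at least 2-fold) when the interval of the difference had to lie inside 0.5 times the change. With the smaller change at least 0.67 times the larger, 174 were alike and higher. Without the arrays lacking Akh signal there were 264 alike lower, 273 called in both repeats, 46 opposite, 836 without overlap (373 higher), and 948 and 924 calls in the comparisons of CAG100 with CAG0 and with CAA/G105. Here too, fewer arrays can only keep or raise the count without overlap. Higher probe sets made up 42.9% of averaged calls, 55.0% once array medians were equalised and 47.4% with quantile normalization. With a replicate block 625 probe sets were alike (257 higher, 368 lower), of which 101 changed at least 2-fold.

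Of 141 called results for named probe sets 78 kept their call under each of up to 23 alternatives, 63 lost it under at least 1 and 0 reversed. The 20 that were not called stayed so. Of 1932 list counts over the alternatives 1564 were within 1.5 times the reported count. Low signals bound many of the largest folds: a group with no array at log2 4 or above gives only a lower limit.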
